A study of Mus musculus with 360 samples.

Results

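The 7 genes Col8a1, Abi3bp, Prss12, Egfl6, Shisa3, Cygb and Car3, out of 24015 genes in the deposited tables, were followed across single CD51+;CD200+ skeletal stem and progenitor cells of the mouse. They were picked from an earlier look at these same measurements as genes with high reads in the posterior frontal suture (PF), so their PF levels are given as a description. Not all of the 7 were raised in PF by the rule given below. Over the coronal suture (COR) 4 of the 7 were raised, over the sagittal suture (SAG) 5 and over the tibial growth plate (GP) 3. Among all tested genes the shares raised were 5.27%, 16.9% and 7.56%, and nothing is read from these counts. Over single PF cells the 7 genes also fell apart. Shisa3, Cygb, Col8a1, Egfl6, Abi3bp and, less closely, Prss12 were read in overlapping cells, whereas Car3 was read mostly in other cells.

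All cells came from wild-type CD-1 mice at postnatal day 3 and were sorted for CD51 and CD200, and against CD45, Ter119, Tie2, Thy1, 6C3 and CD105, before 1 cell was placed in each well. The 360 cells were from PF, COR and SAG, 3 fibrous joints of the skull vault, and from GP, the growth cartilage of the tibia. Each tissue filled wells on 2 plates. No cell is tied to an animal or a litter, so each tissue counted as 1 sample, the plates give the only spread, and no test between tissues was possible. The suture pieces were dissected with their bone fronts and the underlying membrane, and are therefore mixed before the sort.

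A suture holds mesenchyme between 2 bone fronts, and that mesenchyme gives rise to osteoblasts, the cells that lay down bone. PF is the only one of these joints in the mouse that turns to bone soon after birth, and cartilage forms in it on the way. Among the 7 genes, Col8a1 codes for a chain of type VIII collagen, a short network-forming collagen of vessel walls and of the cornea. Abi3bp codes for a secreted matrix protein that binds the SH3 domain of Abi3. Egfl6 codes for a secreted protein with EGF-like repeats that is laid into basement membranes and binds integrins. Prss12 codes for neurotrypsin, a secreted serine protease that cuts agrin. Shisa3 codes for a membrane protein of a family that holds back Frizzled and FGF receptors inside the cell. Cygb codes for cytoglobin, a haem protein found in fibroblasts and pericytes. Car3 codes for carbonic anhydrase III, a cytosolic enzyme abundant in muscle, fat and liver.

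The 7 genes lay on 5 chromosomes of the mm9 build used by the authors. Abi3bp (chr16:56477957-56690241, plus strand) and Col8a1 (chr16:57624371-57754850, minus strand) were separated by 934 kb that held 10 protein-coding genes, of which 9 were in the tables. Those between that were read in at least 10 PF cells, namely Tfg, Tmem45a, Tomm70a, Nit2, Tbc1d23 and Filip1l, had Spearman correlations with it from -0.20 to 0.11 over 87 PF cells. Prss12 (chr3:123149831-123209520, plus) and Car3 (chr3:14863538-14872351, plus) shared a chromosome without being neighbours. Egfl6 was at chrX:162960939-163023652 (minus), Shisa3 at chr5:67999122-68014791 (plus) and Cygb at chr11:116506909-116515627 (minus). Shisa3 shares 138 of its 4753 exonic bases with Atp8a1 on the other strand, and Cygb shares 201 of 2331 with Gm11744. How strand was used in counting is not given in the sources used here, so reads in those stretches cannot be told apart. Atp8a1 itself had 31 CPM (counts scaled to equal total reads) in PF against 158 CPM for Shisa3, and Gm11744 had 1.45 CPM against 64.8 CPM for Cygb.

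RefSeq start regions of the reference were at hand for 4 of the 7 genes, Col8a1, Shisa3, Egfl6 and Prss12. Those of Col8a1 and Shisa3 are shown because these genes gave the closest pair over PF cells. Each line holds the 250 bases before the transcript start (RefSeq, taken from the GRCm38.p6 table and placed on mm9 by an exact match), at chr16:57754851-57755100, minus strand, for Col8a1 and at chr5:67998872-67999121, plus strand, for Shisa3. Capitals mark the letters GGGCGG (the GC box, on either strand) and TGTGGT (the core letters bound by RUNX factors, on either strand).
Col8a1: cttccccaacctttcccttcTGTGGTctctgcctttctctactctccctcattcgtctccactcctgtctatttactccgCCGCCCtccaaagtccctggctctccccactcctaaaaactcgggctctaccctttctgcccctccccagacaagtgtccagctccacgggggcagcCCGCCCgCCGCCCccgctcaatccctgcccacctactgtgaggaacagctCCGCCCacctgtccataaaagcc
Shisa3: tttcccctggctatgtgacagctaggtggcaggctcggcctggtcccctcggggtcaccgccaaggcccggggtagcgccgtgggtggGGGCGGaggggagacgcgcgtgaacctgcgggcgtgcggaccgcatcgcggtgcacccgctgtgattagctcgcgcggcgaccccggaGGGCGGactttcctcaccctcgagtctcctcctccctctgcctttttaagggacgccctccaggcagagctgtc
Both stretches were rich in G and C, with 60.8% for Col8a1 and 69.6% for Shisa3 against a median of 52.4% over 32851 start regions. GGGCGG was found 4 times before Col8a1 and 2 times before Shisa3, once before Egfl6 and not before Prss12. It was found in 32.7% of all start regions of this length. TGTGGT was found 1 time before Col8a1 and 1 time before Prss12, and in 14% of all. None of the 4 held TATAAA (the TATA box, in 12.4% of all), GGAATG (bound by TEAD factors, in 12.6% of all) or TGANTCA (bound by AP-1, in 6.7% of all). CANNTG (the E-box, in 66.2% of all) was in all but that of Shisa3. These are matches of letters and say nothing on binding.

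Of the 360 cells, 325 had at least 500 genes and 10000 reads and were used (87 in PF, 74 in COR, 86 in SAG, 78 in GP). Reads of the ribosomal RNA gene Rn45s were left out of every total. They took 86.8% of the reads on SAG plate 2, which also had a median of only 875 genes per cell, against 20.2% to 31% on the other 7 plates. Without Rn45s a tissue held 17212041 (SAG) to 32037308 (COR) reads. Reads of Cd200 were in 29 to 41 cells of each tissue and reads of Itgav, which codes for CD51, in 16 to 45, whereas Tek and Pecam1 had none in any cell and Ptprc was read in at most 3 cells of a tissue. Enpep (6C3) and Eng (CD105), also sorted against, were read in 3 to 6 and 0 to 4 cells. All values below are CPM of the summed reads of a tissue or plate, and a log2 ratio is log2((CPM + 1)/(CPM + 1)). A gene was called raised in PF where the ratio was at least 1 and both PF plates lay above both plates of the other tissue.

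Col8a1, a matrix gene, was high in PF and in GP and low in COR. It stood at 1039 CPM on PF plate 1 and 564 CPM on PF plate 2, against 17.9 and 48.6 CPM on the COR plates, 74.1 and 559 CPM on the SAG plates and 771 and 571 CPM on the GP plates. PF thus lay above COR on every plate, whereas PF and GP overlapped and SAG plate 2 came close to PF plate 2. Over whole tissues the level was 14.4-fold higher in PF than in COR (log2 ratio 3.82, 3.51 to 5.78 over the 4 plate comparisons). The log2 ratio was 0.85 to SAG and 0.12 to GP.

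Abi3bp was higher in GP than in any suture. Its level was 829 and 538 CPM on the GP plates, 109 and 118 CPM on the PF plates, 14.8 and 21.2 CPM on the COR plates and 2.18 and 259 CPM on the SAG plates. The PF plates agreed closely and lay above both COR plates, while the SAG plates lay on either side of PF. The log2 ratio was 2.45 to COR (2.32 to 2.91 over plates), -0.42 to SAG and -2.33 to GP (-2.91 to -2.18). Abi3bp was the 1 gene of the 7 that met the mirrored rule for lower in PF, against GP, where 8.61% of all tested genes did.

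Egfl6 was shared by PF and GP. It stood at 224 and 397 CPM in PF, 600 and 296 CPM in GP, 42.6 and 170 CPM in COR and 0 and 4.93 CPM in SAG. PF and GP plates overlapped, COR lay below both, and SAG was near 0, with 51 reads in 2 cells. The level in PF was 2.31-fold that in COR (log2 ratio 1.20, 0.40 to 3.19 over plates) and 123-fold that in SAG. Against GP the log2 ratio was 0.06.

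Prss12, the protease, did not set PF apart from COR. It stood at 150 and 134 CPM in PF, 60.8 and 138 CPM in COR and 42.3 and 94.6 CPM in GP, and had 0 reads on both SAG plates. COR plate 2 reached the PF level, so the tissues overlapped. The log2 ratio was 0.07 to COR (-0.04 to 1.29 over plates) and 0.68 to GP. Against SAG the level was at least 787-fold higher in PF, taking 3 reads over the tissue as the floor for 0.

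Shisa3, the brake on Frizzled and FGF receptors, was read in the sutures and not in GP. It stood at 220 and 143 CPM in PF, 43.9 and 156 CPM in COR, 0 and 100 CPM in SAG and 0 on both GP plates. COR plate 2 lay between the PF plates. The log2 ratio was 0.13 to COR (-0.12 to 2.30 over plates) and 1.38 to SAG. All 1037 SAG reads were in 5 cells of plate 2. Against GP the level was at least 1503-fold higher in PF (3 reads over the tissue as the floor).

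Cygb was the only one of the genes that was raised in PF in all 3 comparisons, though its ratios were not the largest. Its level was 88.2 and 59.1 CPM in PF, 0 and 24.6 CPM in COR, 2.76 and 4.64 CPM in SAG and 0 and 2.17 CPM in GP. Both PF plates were above all 6 other plates. PF exceeded COR 2.93-fold (log2 ratio 1.51, 1.23 to 6.48 over plates), SAG 16.6-fold and GP 36.2-fold. Only 1 GP cell held reads of it.

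Car3, the carbonic anhydrase, was high in PF and on 1 COR plate. It stood at 255 and 184 CPM in PF, 278 and 74.4 CPM in COR, 36.1 and 0 CPM in SAG and 1.82 and 9.65 CPM in GP. COR plate 1 was above both PF plates, so the 2.08-fold difference of PF from COR (log2 ratio 1.05, -0.59 to 1.76 over plates) did not hold across plates. One cell gave 62.3% of the Car3 reads of that COR plate. PF exceeded SAG 13.7-fold and GP 23.8-fold, on every plate.

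**Figure D1:**
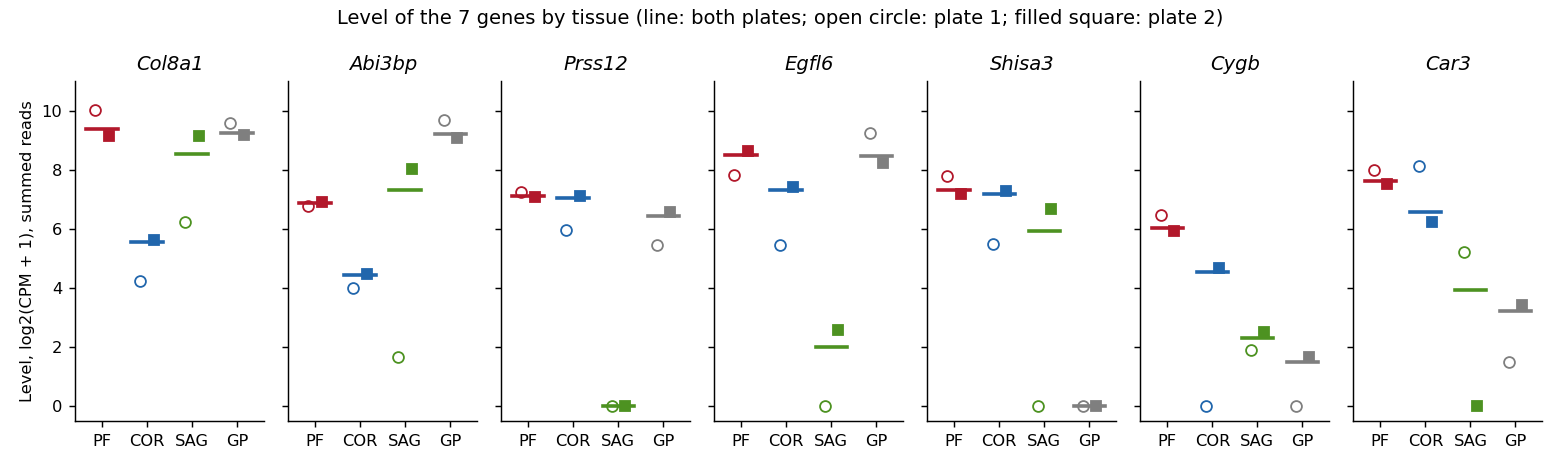
Level of each gene as log2(CPM + 1) of summed reads (y axis) in the 4 tissues (x axis), with a line for the tissue, an open circle for plate 1 and a filled square for plate 2. Cygb is the gene whose PF plates (88.2 and 59.1 CPM) lie above every other plate, and Shisa3 is at 0 on both GP plates.

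Read per kilobase of annotated exon, which is the scale on which genes can be set beside each other, Egfl6 (134), Car3 (131) and Col8a1 (129 CPM per kb) were about equal in PF, followed by Prss12 (52.6), Shisa3 (33.3), Cygb (27.8) and Abi3bp (23.4 CPM per kb). In GP the order was led by Egfl6 (129), Col8a1 (119) and Abi3bp (118 CPM per kb). In COR it was led by Car3 (63), Egfl6 (58.1) and Prss12 (50.1 CPM per kb).

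Counted together, 4 of the 7 genes (Col8a1, Abi3bp, Egfl6 and Cygb) were raised over COR, where 5.27% of the 10686 tested genes were. Against SAG 5 of 7 were raised (Prss12, Egfl6, Shisa3, Cygb and Car3), with 16.9% of all tested genes, and against GP 3 of 7 (Shisa3, Cygb and Car3), with 7.56%. Since the genes were picked for their PF level, nothing is read from these counts. The median log2 ratio of the 7 was 1.20 to COR, 3.69 to SAG and 0.68 to GP, beside 0.01, 0.30 and 0.09 over all tested genes. Against SAG plate 2 alone the median of all tested genes was 1.20, so values against SAG carry that shift. Without SAG plate 2 all 7 genes met the rule against SAG. Without SAG plate 1 Shisa3 no longer did, which left 4. The count against COR also moved with the plates. Without COR plate 2 it was 6, since Prss12 (log2 ratio 1.16) and Shisa3 (1.83) joined, without COR plate 1 it was 5, since Car3 joined, and without PF plate 2 it was 3, since Egfl6 dropped out. Against GP it was 4 without GP plate 2, since Prss12 (1.67) joined.

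Over whole tissues the share of cells with a read was higher in PF than in COR for all 7 genes. At least 1 read was present in 42.5% of PF cells for Col8a1 (37 of 87, exact 95% binomial interval 32% to 53.6%), in 43.7% for Egfl6, 39.1% for Shisa3, 37.9% for Abi3bp, 31% for Car3, 28.7% for Cygb and 26.4% for Prss12. The matching shares of the 74 COR cells were 9.46%, 20.3%, 18.9%, 16.2%, 18.9%, 9.46% and 20.3%. For Car3 the plates overlapped, since it was in 37.5% of the 16 cells of COR plate 1 and in 35.3% and 28.3% of cells on the PF plates. These intervals cover the counting of cells within 1 sample and are no test between tissues. Among cells with a read of Shisa3 the median was 764 CPM in 14 COR cells and 396 CPM in 34 PF cells, but the PF plates lay on either side of COR, with 842 CPM on plate 1 and 389 CPM on plate 2. For Prss12 it was 706 CPM in 15 COR cells and 370 CPM in 23 PF cells. For Col8a1 it was 1857 CPM in 37 PF cells and 247 CPM in 7 COR cells, and both PF plates (2519 and 1264 CPM) were above both COR plates (201 and 247 CPM). Since each gene was read in the minority of PF cells, the median over all PF cells was 0, and the highest single PF cell ranged from 1479 CPM (Cygb) to 6828 CPM (Col8a1).

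GP cells held Abi3bp (57.7%), Col8a1 (48.7%) and Egfl6 (38.5%) at shares like those of PF or above, and Prss12 at 19.2%. Car3 was in 5.13% and Cygb in 1.28% of GP cells. Shisa3 was in 0 of 78 GP cells, which allows a share of up to 3.85% by 3 counts of the total and 4.62% by the exact interval. In SAG the shares were 20.9% for Col8a1, 12.8% for Abi3bp, 5.81% for Shisa3, 4.65% for Cygb, 3.49% for Car3 and 2.33% for Egfl6, and Prss12 was in 0 of 86 cells, which allows up to 3.49% by 3 counts and 4.2% by the exact interval. Intervals and limits cover counting error only, since reads were counted without molecular identifiers.

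**Figure D2:**
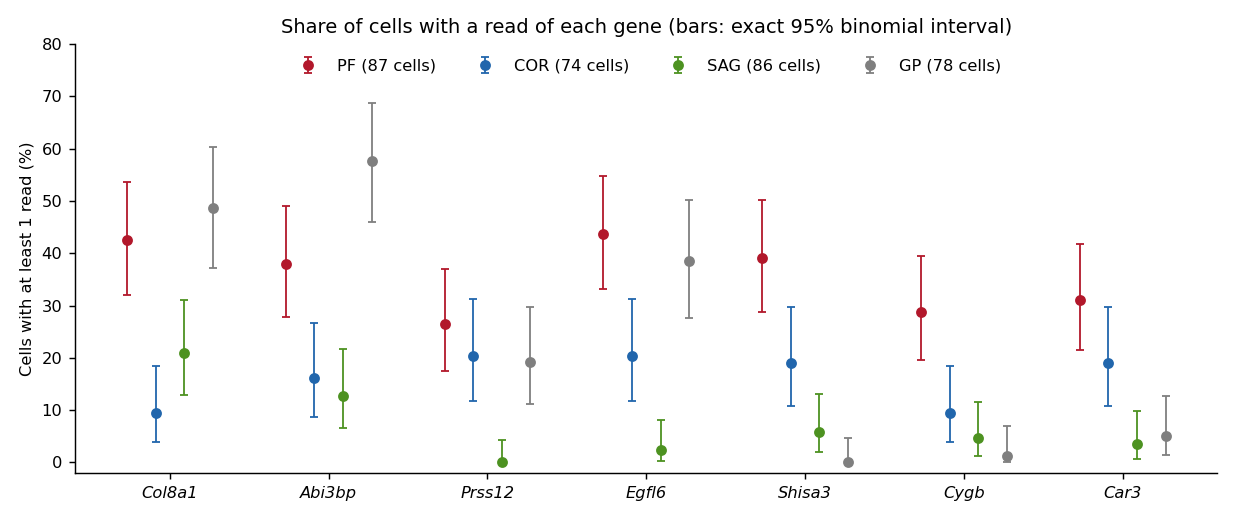
Share of cells with at least 1 read of each gene (y axis, percent) in PF (87 cells), COR (74 cells), SAG (86 cells) and GP (78 cells), with exact 95% binomial intervals as bars. Over whole tissues PF is above COR for all 7 genes, and GP is above PF for Col8a1 (48.7%) and Abi3bp (57.7%).

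Depth differed between the tissues, with a median of 184673 (SAG) to 448803 (COR) reads per cell other than Rn45s and 312083 in PF. When each cell was thinned to 100000 reads, which kept 70 PF, 71 COR, 80 SAG and 67 GP cells, the shares in PF ran from 25.7% (Cygb) to 37.1% (Shisa3). Those in COR ran from 9.86% (Col8a1 and Cygb) to 19.7% (Prss12, Egfl6 and Shisa3), and PF was above COR for each gene over whole tissues. Abi3bp (62.7%), Col8a1 (55.2%) and Egfl6 (43.3%) were then higher in GP than in PF (34.3%, 35.7% and 35.7%).

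Many PF cells held several of the genes at once. Of the 87 PF cells, 14 held none, 26 held 1, 10 held 2, and 9 each held 3, 4 and 5. A further 7 cells held 6 and 3 cells held all 7. At least 2 of the genes were thus read in 54% of PF cells (43% to 64.8%), with 58.8% on plate 1 and 50.9% on plate 2. The share was 25.7% of COR cells, 8.14% of SAG cells and 50% of GP cells. In the thinned cells it was 48.6% in PF, 26.8% in COR, 8.75% in SAG and 55.2% in GP. At equal depth GP was thus above PF, so holding at least 2 did not set PF apart from GP. At least 5 were read in 21.8% of PF cells (13.7% to 32%), in 5.41% of COR cells and in no SAG or GP cell. In the thinned cells the share with at least 5 was 21.4% in PF and 5.63% in COR. The highest number was 6 in COR, in 1 cell, and 4 in SAG and in GP. Since each gene was more often read in PF than in COR, the number per cell differs with the single shares, and the pairs below are given beside what those shares alone would give.

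**Figure D3:**
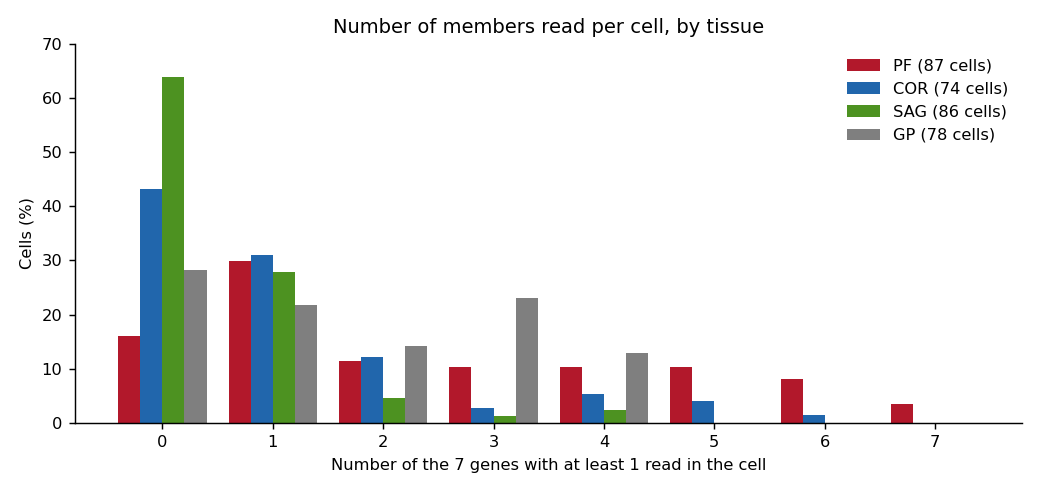
Number of the 7 genes with at least 1 read in a cell (x axis) and share of cells (y axis, percent) in the 4 tissues. PF cells reach 7 genes (3 of 87 cells), while SAG and GP cells stop at 4.

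Shisa3 formed the core of this overlap. Of the 34 PF cells with Shisa3, 32 also held Col8a1, where the single shares would give 14.5, and the Spearman correlation of log2(CPM + 1) was 0.80 (0.70 on plate 1 and 0.87 on plate 2). Of the 25 PF cells with Cygb, 24 also held Shisa3 (9.77 from the single shares), with a correlation of 0.74. So the cells were nearly nested: 22 of the 25 Cygb cells held Shisa3 and Col8a1 together. Egfl6 was in 31 of the 37 Col8a1 cells (correlation 0.55) and Abi3bp in 25 of them (0.49), and Egfl6 and Abi3bp shared 26 cells (0.58). Prss12 was looser. It shared 15 of its 23 cells with each of Col8a1, Egfl6 and Shisa3, and its correlations with the 5 genes of this overlap ran from 0.22 to 0.27.

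Across the 21 pairs, 10 had a correlation of at least 0.3 over PF cells, and 2.16% of all 24496500 gene pairs did. These 10 were all the pairs among Col8a1, Abi3bp, Egfl6, Shisa3 and Cygb. On plate 2 alone 14 pairs reached 0.3, among them Prss12 with Col8a1 (0.33), Egfl6 (0.36), Shisa3 (0.36) and Cygb (0.40), whereas on plate 1 Prss12 had 0.01 to 0.18 with the 5 genes. Over the fewer cells of 1 plate the share of all gene pairs at 0.3 or more was also higher, with 9.96% on plate 1 and 6.63% on plate 2. The median was 0.27 over the 21 pairs and 0.46 over the 15 pairs without Car3, beside 0.06 over all gene pairs. The median of the 21 was 0.18 on plate 1, where only 8 cells held Prss12, and 0.36 on plate 2. The points of these correlations share a tissue, a sort and, within a plate, a run, and many are at 0 for both genes. The number of members read per PF cell had a correlation of -0.03 with the reads of the cell other than Rn45s and of 0.22 with its genes. With the reads it was -0.23 on plate 1 and 0.11 on plate 2.

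Car3 lay apart. Its 6 correlations with the other genes in PF were all below 0, from -0.29 with Egfl6 to -0.08 with Prss12. Car3 shared 6 PF cells with each of Col8a1, Egfl6, Shisa3 and Prss12 and 5 with each of Abi3bp and Cygb. Single shares would give 11.5 for Col8a1, 11.8 for Egfl6, 10.6 for Shisa3, 10.2 for Abi3bp, 7.76 for Cygb and 7.14 for Prss12. Of the 32 PF cells with none of the other 6 genes, 18 held Car3 (56.2%). Of the 37 cells with 3 or more of them, 6 did (16.2%), and of the 7 cells with 2, none did. The split was on both plates, with 7 of 12 against 4 of 14 cells on plate 1 and 11 of 20 against 2 of 23 on plate 2. It was weaker on plate 1, where the 6 correlations ran from -0.18 to -0.02, against -0.37 to -0.11 on plate 2. Doublets were not called.

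**Figure D4:**
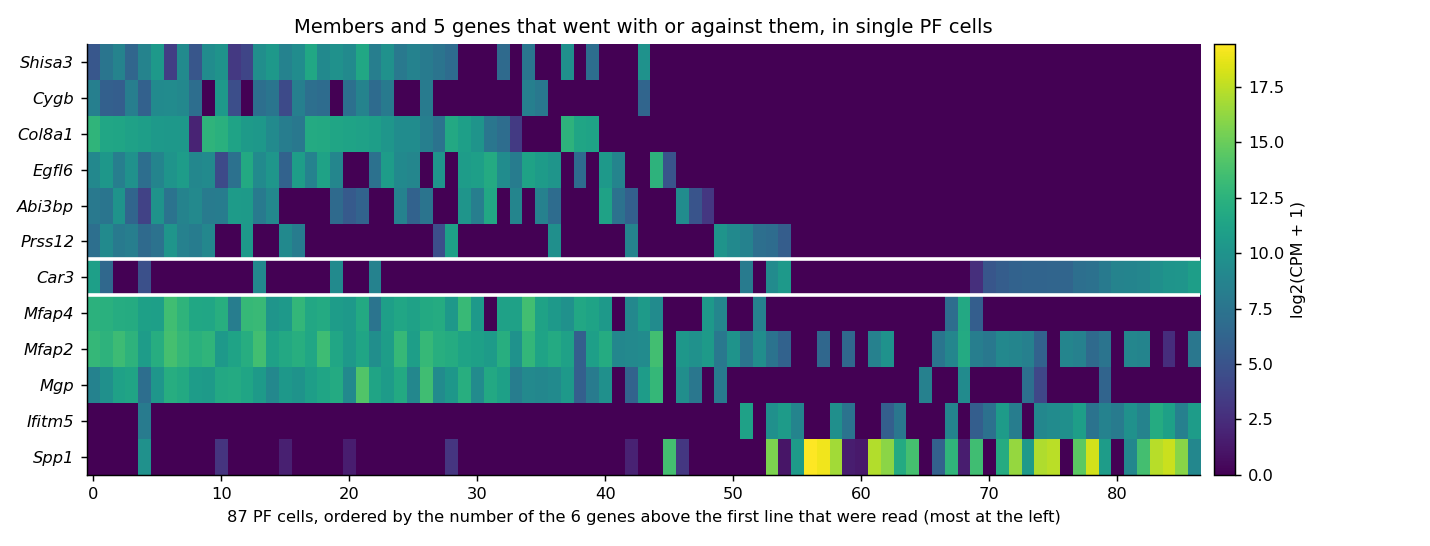
Level of the 7 genes and of Mfap4, Mfap2, Mgp, Ifitm5 and Spp1 in each of 87 PF cells (columns), as log2(CPM + 1) in colour, with cells ordered by how many of the first 6 genes were read. Shisa3, Cygb and Col8a1 fill the left side, Mfap4 and Mgp go with them, and Car3, Ifitm5 and Spp1 lie mostly at the right, where 18 of 32 cells with none of the 6 held Car3.

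In the other tissues the overlap was found in part. In COR the pair Egfl6 and Shisa3 shared 11 cells of 15 and 14 (correlation 0.71), and all 7 Cygb cells held Shisa3 (0.66). Col8a1 was in only 5 of the 14 Shisa3 cells of COR, against 32 of 34 in PF. Abi3bp stood apart there, with correlations from -0.05 to 0.26 with the other 5 genes, and it shared 1 cell with the 7 of Col8a1. Among the 10 pairs of genes read in at least 10 COR cells, 3 had a correlation of at least 0.3 (2.11% of all gene pairs in COR). In GP, Col8a1, Abi3bp and Egfl6 overlapped without Shisa3. Of the 38 Col8a1 cells of GP, 36 held Abi3bp (correlation 0.74), 28 held Egfl6 (0.62) and 0 held Shisa3. That allows a share of up to 7.89% by 3 counts and 9.25% by the exact interval, and the share in PF was 86.5% of Col8a1 cells (exact interval 71.2% to 95.5%). In GP, 4 of 6 such pairs reached 0.3, with 2.20% of all gene pairs. In SAG 4 of 18 Col8a1 cells held Shisa3 and 2 held Egfl6. The split of Car3 seen in PF was not seen in COR, where Car3 was in 9 of the 41 cells with none of the other 6 genes (22%) and in 3 of the 10 with 3 or more (30%). All 4 Car3 cells of GP and all 3 of SAG were among the 26 GP and 58 SAG cells with none of the 6.

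**Figure D5:**
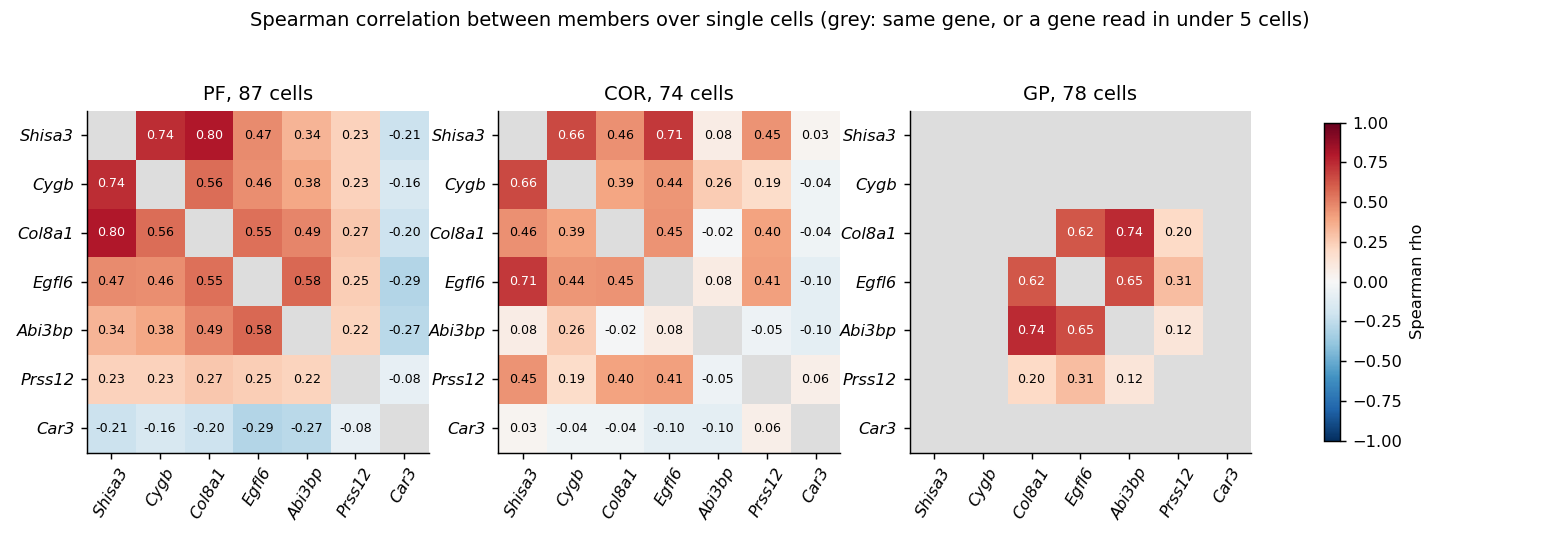
Spearman correlation of log2(CPM + 1) between each pair of the 7 genes over single cells of PF (87), COR (74) and GP (78), in colour and as a value, with pairs of genes read in under 5 cells left grey. Shisa3 with Col8a1 is highest in PF (0.80), Egfl6 with Shisa3 in COR (0.71) and Col8a1 with Abi3bp in GP (0.74), and Car3 is below 0 with every gene in PF.

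Genes that went with the 6 in PF cells were mostly genes of the extracellular matrix. For each of the 7 the 5 genes with the highest correlation were taken, which gave 26 different genes. Mfap4, a microfibril protein, was read in 36 of the 37 Col8a1 cells and had a correlation of 0.74 with Col8a1, 0.69 with Egfl6 and 0.65 with Cygb. Mgp, a secreted inhibitor of calcification, was in all 37 Col8a1 cells (0.74) and in 31 of 33 Abi3bp cells (0.59). Igfbp4, which binds insulin-like growth factors (0.75), and Fstl1, a secreted follistatin-like protein (0.69), completed the list of Col8a1 after Shisa3. Egfl6 went with Mfap2, another microfibril protein (0.72), 1500015O10Rik (0.71) and the lysyl oxidase relative Loxl1 (0.68). Abi3bp went with 1500015O10Rik (0.61), Itm2a (0.60), Cdkn1c, which codes for a brake on the cell cycle (0.59), and Mfap2 (0.58).

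Shisa3 and Cygb shared partners beside each other. Fxyd5, a regulator of the sodium pump, had the highest correlation of any gene with Shisa3 (0.81, in 32 of 34 Shisa3 cells) and 0.69 with Cygb. Atp1b1, a subunit of the sodium pump, followed with 0.74 and 0.68, Apoe, an apolipoprotein, had 0.75 with Shisa3, and Fmo1, a monooxygenase, 0.67 with Cygb. Prss12 had weaker partners, among them C1qtnf4 (0.52), Tspan18 (0.44), Usp11 (0.43) and the protease gene Ctsk (0.43, in all 23 Prss12 cells).

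Car3 went with genes of bone-forming cells. Ifitm5, a membrane protein of mineralizing osteoblasts, was in 21 of the 27 Car3 cells and had a correlation of 0.68. Bglap2 (0.67) and Bglap (0.64), which code for osteocalcin, Smpd3, a sphingomyelinase needed for mineralization (0.65), and Cdo1, cysteine dioxygenase (0.63), made up the rest. Ifitm5 had a correlation with Car3 of 0.52 in COR and 0.83 in GP, where only 4 cells held Car3. Bglap2 and Bglap had 0.10 and 0.01 in COR.

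Of the 35 partner relations picked in PF, 21 were at least 0.3 in COR and, of the 28 that could be computed in GP, 15 were. Among all pairs of genes read in at least 10 cells of the tissue, 2.11% were in COR and 2.20% in GP. The partner relations were not held to that limit, so the 2 sets are unlike. Col8a1 and Cygb were each read in 7 COR cells, and Car3 in 4 GP cells. The pairs of Shisa3 with Col8a1 and with Cygb are each counted from both sides. All 5 partners of Egfl6, of Shisa3 and of Cygb reached 0.3 in COR, and none of the 5 of Abi3bp or of Prss12 did. In GP all 5 of Abi3bp reached it (0.32 to 0.77), as did 4 of 5 of Egfl6 and 3 of the 4 computed for Col8a1. For Car3 2 of 5 did and for Prss12 1 of 5. None did of the 4 computed for Cygb, a gene that 1 GP cell held.

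The number of the 7 genes read per PF cell was set against every gene read in at least 10 PF cells. Of these 6993 genes, 6.03% had a correlation of at least 0.3 with it and 1.29% of -0.3 or below. The highest were Mfap4 (0.78), Mfap2 (0.77), Mgp (0.75), 1500015O10Rik (0.74), Cdkn1c (0.74), the fibril-associated collagen gene Col14a1 (0.72), the carboxypeptidase gene Cpz (0.72), Fxyd5 (0.70), Gnas (0.70) and the interleukin 11 receptor gene Il11ra1 (0.70). In COR 9 of these 10 also reached 0.3 (0.29 for Fxyd5) and in GP 8 did, with Fxyd5 at -0.14 and Mgp at 0.12. The share of all genes that did so in COR or GP was not worked out, so nothing is read from these counts. The most negative were Spp1 (osteopontin, -0.61), Ibsp (bone sialoprotein, -0.49), Dapk2 (-0.48), Col13a1 (-0.48), Fgfr3 (-0.45) and Vdr (the vitamin D receptor, -0.45). Ifitm5 (-0.43), Rps9 (-0.43), Mef2c (-0.43) and the Wnt inhibitor gene Wif1 (-0.43) followed.

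Marker lists were set against the number of members in the same way. Of the 14 osteoblast markers that could be correlated, 8 had -0.3 or below with the number of members (among them Sp7, Ibsp, Spp1, Bglap, Smpd3, Ifitm5 and Dlx5) and 0 had 0.3 or more. The summed level of the 16 osteoblast markers had a correlation of 0.43 with Car3 (0.11 on plate 1 and 0.58 on plate 2) and of -0.21 with the number of the other 6 genes (-0.45 on plate 1 and -0.08 on plate 2). Its level was 119501 CPM in PF and 120576 CPM in COR, and 1 of the 16 was raised over COR (Dmp1, 1385 against 537 CPM) and 1 lower (Dlx5, 59.7 against 161 CPM), beside 5.27% raised and 6.60% lower among all tested genes. Of 9 fibroblast markers 7 had 0.3 or more, with Col14a1 (0.72), Ogn (0.62) and Dcn (0.59) first, and none was at -0.3 or below. The fibroblast sum was 20734 CPM in PF and 30761 CPM in COR, with overlapping plates (23750 and 20002 against 23324 and 31597 CPM), and 2 of 10 tested were raised over COR, Fbln2 (161 against 51.4 CPM) and Mfap5 (60.6 against 4.87 CPM), whereas Dpt was lower (0 against 49.8 CPM). Of 4 tendon markers 3 had 0.3 or more (Fmod 0.48, Tnmd 0.42, Chad 0.32), and these 3 of the 7 on the list were also raised over COR, Tnmd with 315 against 83.3 CPM. GP held more Tnmd, with 2089 CPM.

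Chondrocyte markers were low in PF (1319 CPM summed, against 25080 CPM in SAG), and 3 of 6 had 0.3 or more (Col11a1 0.47, Acan 0.36, Col9a2 0.32), whereas Col11a2 had -0.31. Of 13 tested, Col9a2 and Comp were raised over COR and Hapln1 was lower. Among 6 suture mesenchyme markers 2 did (Ctsk 0.62, Msx2 0.35), and of 9 tested none was raised over COR and Tnn was lower (85.8 against 974 CPM). Markers of the meninges, which lie under the suture, summed to 204 to 400 CPM on the PF plates, 41.7 to 193 in COR, 108 to 181 in SAG and 74.5 to 165 in GP. Of 4 that could be correlated, Foxc2 had 0.39, and the summed level of all 8 had 0.50 with the number of the 6 genes, and 1 of 6 tested was raised over COR (Aldh1a2, 26 against 0 CPM). Their part in the result was not tested. The 8 endothelial markers summed to 20.1 CPM in PF, the 7 of blood cells to 18.9 CPM (Lyz2 raised over COR) and the 11 of skeletal muscle to 3.66 CPM. The muscle sum had a correlation of 0.30 with Car3, a gene of muscle, and was read in 6 PF cells. The 11 pericyte and smooth muscle markers summed to 1240 CPM in PF and 705 in COR. One cell held 41.2% of the PF reads of the whole list. Rgs5 and Notch3 were raised over COR, and none of the 5 that could be correlated reached 0.3. The 10 fat cell markers gave 42.4 CPM, the 7 neural ones 217 CPM (94.5% in 1 cell) and the 4 of keratinocytes 9.84 CPM. No fat cell marker could be correlated. Only 1 neural and 1 keratinocyte marker could be, and neither was at 0.3 or more.

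Relatives of the 7 genes were mostly low or not raised. Col8a2 codes for the partner chain of Col8a1 in type VIII collagen. It stood at 335 CPM in PF, 144 in COR, 123 in SAG and 337 in GP, was raised over COR (log2 ratio 1.22) and had a correlation of 0.62 with the number of members. Of the 11 related collagens, 8 were tested and 3 raised over COR, Col8a2, Col4a2 (149 against 69.4 CPM) and Col4a5 (3.76 against 0 CPM), and 1 was lower, Col15a1. Their median log2 ratio to COR was 0.91, beside 0.01 over all tested genes. Col10a1, the other short-chain collagen, was at 0 in PF and at 4890 CPM in GP. Npnt, the closest relative of Egfl6, went the other way, with 91.6 CPM in PF and 352 in COR and a correlation of -0.30. Itga8, a receptor chain for both proteins, was read in 3 PF cells, and of 9 tested on that list none was raised over COR, with a median log2 ratio of -1.49.

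The Abi genes gave no call, and Abi3, for which Abi3bp is named, had 1.52 CPM in PF, in 1 cell. Agrn, the substrate of neurotrypsin, was at 96.9 CPM in PF and 56.6 CPM in COR, and Serpini1, a protease inhibitor of neurons, at 0 in both. In that list of 7 no gene was raised over COR and Prss36 was lower, whereas Prss35 had a correlation of 0.37 and Serpine2 of -0.32 with the number of members. Among Shisa genes, 0 of 4 tested were raised over COR. Shisa5 (188 CPM in PF) had a correlation of 0.35, Shisa4 was at 49.2 CPM and Shisa2 at 43.6 CPM. Of 14 Frizzled, Lrp and FGF receptor genes tested 3 were raised over COR, Fzd8 (10.7 against 2.34 CPM), Fzd9 (72.9 against 16.6 CPM) and Lrp5 (14.5 against 3.81 CPM), and Fzd5 was lower, beside 5.27% raised and 6.60% lower among all tested genes. In the single PF cells, Fzd2 (0.34) and Lrp6 (0.36) went with the number of members and Fgfr3 (-0.45) against it. The globins Mb and Ngb had no read in PF. Of 18 antioxidant genes none was raised over or lower than COR, and Cat reached 0.33. Of the 5 other carbonic anhydrases tested none was raised over COR. Car2 was at 143 CPM in PF, in 5 cells, and at 0 in COR, and Car13 (24.3 CPM in PF) had a correlation of 0.31 with the number of members and -0.07 with Car3.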

How the data were processed

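Single CD51+;CD200+ cells of 4 tissues were measured by full-length RNA-seq with paired-end reads, and the authors deposited raw read counts per gene and cell in 8 tables, 1 for each of 2 plates per tissue. Per the submitters' processing notes, reads were aligned with STAR 2.5.3a to mm9, and HTSeq, Seurat 2.3.0 and R 3.4.4 are named. Which annotation was counted, and how strand was treated, is not given in the sources used here. There are no molecular identifiers, so reads are not independent molecules.

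Cells were grouped by their labels. The record of 1 SAG cell names a PF plate in its description, was kept as SAG and held no read of the 7 genes. Cells with fewer than 500 genes or 10000 reads were left out (35 of 360), Rn45s was left out of totals, and reads were summed per tissue and plate (Python 3.11.15, pandas 2.3.3, scipy 1.17.1). Ratios used a pseudocount of 1 and genes with at least 10 CPM in 1 tissue. Spearman correlations used log2(CPM + 1) and genes read in at least 10 PF cells. With 1 sample per tissue no test between tissues was made. The members and lists were chosen with earlier results of these data known. Genes named are the 7 members, the 5 genes per member and 10 per number of members with the highest correlation that was above 0 on both PF plates, the 10 lowest, list genes by fixed limits (log2 ratio of 1 on all 4 plate comparisons, or a correlation of 0.3), genes between 2 members and relatives. Alternatives were another total, TMM factors (edgeR 4.0.16), other filters, pseudocounts and weights of cells, thinning and leaving out plates. A form of the rule with a lower limit on the ratio, and the ranks, were run on simulated data. Those data had no spread between cells or plates beyond counting, so the rule as used here was not tested. Some genes that met this rule are not reported here.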

Additional observations from a re-analysis of the deposited data

Results flagged for a closer look

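Reads of the 7 genes in the 35 cells left out by the filter were looked at because these cells enter no comparison. Col8a1 had 16 reads in 2 of the 8 SAG cells left out, above the 3 reads that a count of 0 allows. One of these cells held 13 reads among 1365 reads other than Rn45s and 334 genes, and the other 3 reads among 55927 and 378 genes. Rn45s took 92.2% and 95.9% of their reads. Car3 had 1 read in 1 of the 7 GP cells left out. In the 14 PF cells left out, which had a median of 40 reads, none of the 7 genes was read.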

How the results depend on the processing

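The median log2 ratio of the 7 genes to SAG, 3.69, became 4.77 with Rn45s counted in the total, 5.04 with only cells of at least 1500 genes and 50000 reads, and 2.68 with the mean of the CPM of each cell, and the count of genes raised over SAG, 5, was 5 to 7 over the alternatives. Leaving out 1 plate at a time gave medians of 3.54 to 5.20 to SAG, 1.33 to 2.89 to COR and 0.53 to 1.67 to GP, and counts of 4 to 7, 3 to 6 and 3 to 4. The upper ends are those without plate 2 of SAG, COR or GP. The cause was not tested. With the stricter cell filter 3 genes were raised over COR in place of 4, since Egfl6 no longer met the rule. The share of PF cells with 2 or more of the genes was 50.9% to 58.8% by plate and 46.5% to 56.5% over the alternatives, and the median correlation 0.18 to 0.36 by plate and 0.26 to 0.38. Among ratios of single genes under an alternative, none of those called changed direction, but some of those not called did. That of Abi3bp to SAG went from -0.42 to 5.04 with the stricter cell filter. That of Egfl6 to GP went from 0.06 to -0.72 without GP plate 2. Counting all ratios, 232 stayed within the spread over plates and 41 did not. Some of the 232 could not move, since leaving out 1 SAG cell changes no ratio to COR or GP, so the counts do not measure stability. No paired analysis was possible because plate numbers do not tie cells of different tissues to each other. TMM factors changed no call. Depth limits the genes at 0, such as Prss12 in SAG, and cells at 0 are not shown to lack a gene. Each tissue is 1 sample, so how these values vary between animals is unknown.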
